A study of Neurospora crassa with 94 samples.

Results

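NCU10502, NCU10644, NCU16929, NCU09952 and NCU08969 are genes of the filamentous fungus Neurospora crassa, 5 of the 10397 in the deposited tables, and are named only by these identifiers. They were chosen by their near-silence in wild type and their high level in isw or in the acf iaf-1 iaf-2 mutant, so their levels in those 3 genotypes are description and carry no test. None has a gene name or an annotated role in the sources used here, and none overlaps another gene in the reference table.

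ISWI is an ATP-dependent chromatin remodeler that moves and spaces nucleosomes, and its ATPase works with accessory subunits. In Neurospora the isw gene encodes the ATPase, acf encodes a relative of the ACF1 subunit of animals, and the iaf genes encode ISWI accessory factors. The set-7 gene encodes the catalytic subunit of Polycomb repressive complex 2 (PRC2), which methylates lysine 27 of histone H3 in facultative heterochromatin, where genes are kept silent. The study set out to compare wild type with ISWI and PRC2 mutants.

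The RNA came from mycelial cultures grown in constant light, in 41 libraries of 3 series named by the number that opens their labels. Series 111 held wild type (WT) and the acf, iaf-1 and iaf-2 deletions. Series 112 held WT, acf, set-7 and the triple mutant acf iaf-1 iaf-2. Series 118 held WT, isw, the triple mutant and the double mutants acf iaf-1, acf iaf-2 and iaf-1 iaf-2. Every group had 3 libraries except iaf-1 iaf-2, which had 2. Nothing in the labels ties a replicate to a separate culture, so the p-values reflect the spread among libraries alone, and this spread may be technical. Library totals ran from 5332503 to 9021398 reads in series 111, from 5652592 to 22582163 in series 112 and from 11711993 to 21973649 in series 118. Values are read counts in series 111 and 112. In series 118 they are TPM, a level per counted base relative to all transcripts of the library.

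Transcripts of the targeted genes were checked against the labels. The isw transcript stood at 2.12 TPM ± 0.45 in isw and 33.0 ± 3.34 in WT (SD, n = 3). Transcripts of iaf-1 and iaf-2 were at 1.30 TPM or less in every library whose label gives their deletion. The acf transcript went against its label: it was at 30.8 TPM ± 3.38 in the libraries labelled acf of series 112 and at 12.8 ± 2.80 in WT (SD, n = 3). In series 111 it was at 90.6 TPM ± 5.20 and 19.1 ± 2.00 (SD, n = 3). The double and triple mutants with acf in their label also held acf reads, so "acf" below always means the library labelled so. Reads of set-7 remained in the libraries labelled set-7, at 1.498 TPM ± 0.17 against 2.56 ± 0.59 in WT (SD, n = 3).

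Among the WT libraries, 1 in each of series 112 and 118 stood apart at these loci. In series 112, WT replicate 2 held 68 reads over the 5 genes, with reads in all 5, and the other WT libraries held 11 and 19. Its reads came to between 0.0425% and 0.0681% of the triple mutant's summed reads for each gene. In series 118, WT replicate 1 held 51 reads over the 5 genes and the others 17 and 15. Where leaving 1 of them out changed a call or a sign, or moved a called value by over 1.5 times, the value without it is given. Where the extra reads came from was not tested.

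In isw the 5 genes reached levels per length of 525 to 5975 TPM on average, against 0.16 to 2.12 TPM in WT of series 118. Their ranks among all genes by mean TPM moved from between 7827 and 8837 in WT to between 15 and 299 in isw. A total of 2571 genes had a WT mean no higher than that of the highest of the 5, 2.12 TPM. Of these, 36 reached 100 TPM in isw, 38 did so in the triple mutant, and 31 in both. The median of the 2571 genes was 0.05 TPM in WT and 0.70 in isw. Within them the 5 genes ranked 1, 2, 3, 6 and 7 in isw. Over all genes tested, 29.0% were called higher in isw (limma, adjusted p under 0.05), a share given only as background since isw was used to choose these genes. In bulk RNA, more expressing cells and more RNA per cell cannot be told apart.

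NCU10502, with a counted length of 528 bases, was the most abundant of the 5 in isw. Its 3 WT libraries of series 118 stood at 4.86, 0.57 and 0.92 TPM, and its isw libraries at 6354, 5608 and 5964 TPM. The triple mutant libraries gave 4033, 3999 and 3561 TPM. The isw and triple mutant libraries thus lay far above every WT library, and the isw libraries all lay above those of the triple mutant. NCU10644, the shortest of the 5 at 207 counted bases, had 1.86, 0 and 0 TPM in WT and 2148, 1982 and 2108 TPM in isw. In the triple mutant it stood at 1682, 1705 and 1019 TPM, again below all 3 isw libraries.

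NCU16929 (572 bases) had 3.36, 1.86 and 1.13 TPM in WT and 6193, 4597 and 4746 TPM in isw. Its triple mutant libraries stood at 1725, 1889 and 1414 TPM. NCU09952 (566 bases) was the lowest of the 5 in WT, with 0.23, 0.27 and 0 TPM, and had 560, 492 and 525 TPM in isw. It gave 335, 407 and 320 TPM in the triple mutant. For both genes every isw library exceeded every triple mutant library. NCU08969 (1224 bases) had 1.26, 0.87 and 1.06 TPM in WT, 611, 523 and 551 TPM in isw and 761, 911 and 1191 TPM in the triple mutant, so here the triple mutant was the higher.

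**Figure D1:**
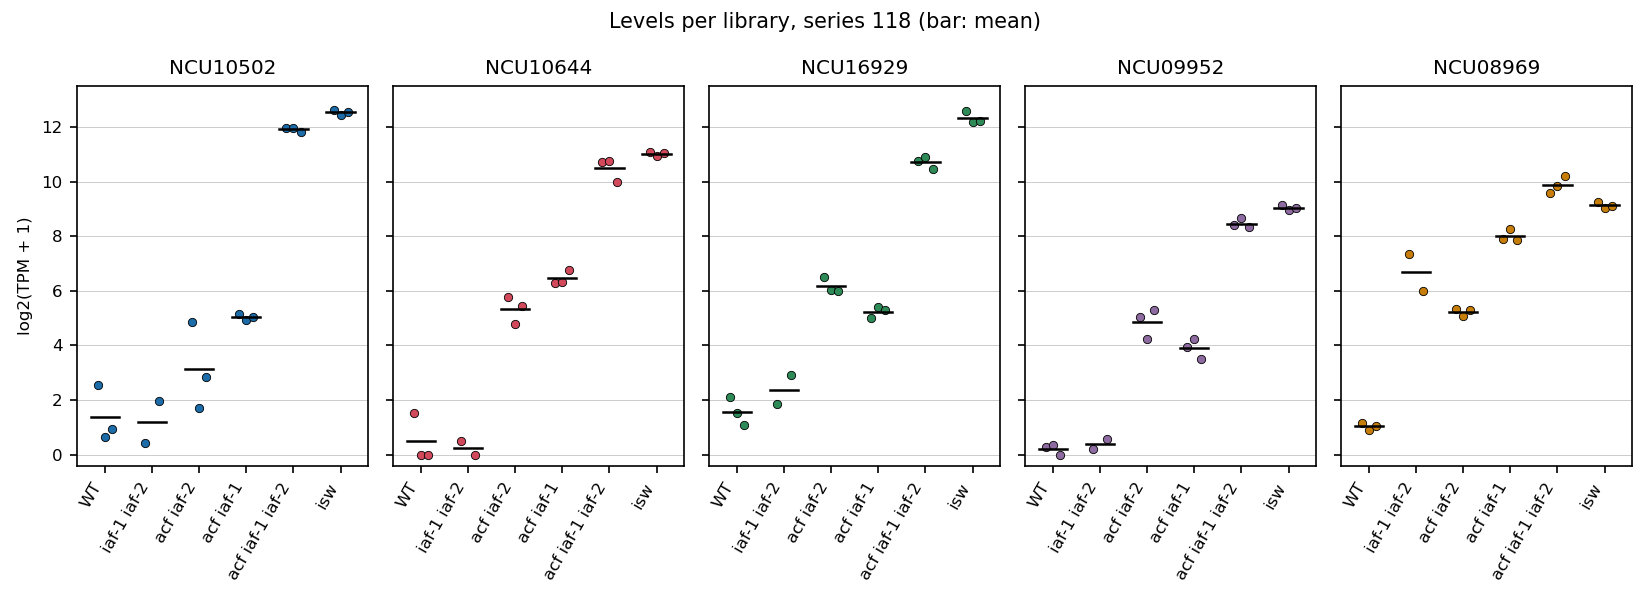
Level of each gene in each library of series 118 on a log2(TPM + 1) axis, by genotype, with points for libraries and a bar for the mean of the plotted values (n = 3, or 2 for iaf-1 iaf-2). All 5 genes stood highest in isw and the triple mutant; NCU08969 also stood at 63.5 and 162 TPM in iaf-1 iaf-2, where the other 4 stayed at or below 6.50 TPM.

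The ratio of the isw mean to the triple mutant mean was 1.55 for NCU10502, 1.42 for NCU10644, 3.09 for NCU16929, 1.48 for NCU09952 and 0.59 for NCU08969. In none of the 5 did the libraries of both genotypes overlap. The share of all genes without such an overlap is not given here, and both genotypes were used in the choice, so this is a description. The triple mutant of series 112 also held large numbers of reads. NCU10502 had 29561, 16049 and 13213 reads there, against 1, 25 and 0 in WT. NCU10644 had 12047, 5267 and 4810 reads, against 0, 10 and 0 in WT. Per length the triple mutant means of series 112 were 5070.0 TPM for NCU10502, 4755 for NCU10644, 3057 for NCU16929, 289 for NCU09952 and 750.4 for NCU08969. The mean of NCU10644 in the triple mutant was thus 4755 TPM in series 112 and 1469 in series 118, and for the other 4 genes the means of the series lay closer together. Over all genes tested, 28.6% were called higher in the triple mutant in series 112 (edgeR) and 29.8% in series 118 (limma).

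The double mutants were not used to choose the genes. In acf iaf-1, all 5 genes rose against WT, while 17.7% of all genes tested were called higher. In acf iaf-2, 4 of the 5 rose, against 19.5% of all genes. In iaf-1 iaf-2, 1 of the 5, NCU08969, rose, against 14.0% of all genes. The 5 genes passed the filter on low values through isw and the triple mutant too, and the WT libraries in these comparisons were part of the choice. NCU10502, NCU10644 and NCU09952 did not reach 1 TPM in 2 libraries of WT or of iaf-1 iaf-2. They were thus tested only through mutants in which they are high. Their calls against WT or iaf-1 iaf-2 lend no support, and the counts against WT are given as a description. All these libraries carry the same batch label, but both iaf-1 iaf-2 libraries have later library numbers than all of WT, isw and acf iaf-1. Differences of iaf-1 iaf-2 from WT or acf iaf-1 thus cannot be told apart from this order. In acf iaf-2 and the triple mutant, replicate 1 has an early number and the others have later ones. Comparisons between the double mutants involve no group used in the choice, and there all 5 genes were higher in acf iaf-1 than in iaf-1 iaf-2 (26.5% of all genes called in either direction). Of the 5, only NCU16929 and NCU08969 reached the filter in iaf-1 iaf-2 itself, so this count is a description. In acf iaf-2 against iaf-1 iaf-2, NCU10644, NCU16929 and NCU09952 were higher and NCU08969 was lower (27.3% of all genes called). NCU10502 had a difference of 1.95 ± 0.74 (log2, SE; limma adjusted p = 0.0708). It was called by edgeR on recovered reads, at 3.14 (edgeR adjusted p = 0.036), and by limma without acf iaf-2 replicate 2, at 2.66 (limma adjusted p = 0.0134). With iaf-1 iaf-2 at 2 libraries, either of them moved some values: the NCU10502 difference of acf iaf-1 from iaf-1 iaf-2, 3.86, was 3.09 without replicate 1 of the latter and 4.62 without replicate 2, and was called in both.

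NCU10644 stood at 76.9, 78.7 and 107 TPM in acf iaf-1, at 53.9, 26.7 and 42.7 TPM in acf iaf-2 and at 0.43 and 0 TPM in iaf-1 iaf-2. The first and second of these genotypes lay above every WT library, and iaf-1 iaf-2 overlapped WT. On the log2(TPM + 1) scale, which understates changes of low genes, the difference from WT was 5.95 ± 0.36 (SE) in acf iaf-1 (limma adjusted p = 7.15e-09). In acf iaf-2 it was 4.84 ± 0.36 (SE; limma adjusted p = 8.71e-08), and in iaf-1 iaf-2 -0.25 ± 0.40 (SE; limma adjusted p = 0.723). The iaf-1 iaf-2 difference turned to 0.26 without WT replicate 1 (limma adjusted p = 0.626).

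NCU16929 had 30.8, 41.5 and 38.8 TPM in acf iaf-1, 90.2, 65.1 and 63.3 TPM in acf iaf-2 and 2.62 and 6.50 TPM in iaf-1 iaf-2. NCU09952 had 14.3, 17.8 and 10.4 TPM in acf iaf-1, 32.2, 18.0 and 38.1 TPM in acf iaf-2 and 0.16 and 0.49 TPM in iaf-1 iaf-2. For both genes acf iaf-2 was the higher of the double mutants and its libraries did not overlap those of acf iaf-1. Against WT, NCU16929 rose by 4.61 ± 0.27 (log2, SE) in acf iaf-2 (limma adjusted p = 1.49e-09) and by 3.66 ± 0.27 in acf iaf-1 (limma adjusted p = 2.47e-08). NCU09952 rose by 4.65 ± 0.22 in acf iaf-2 (limma adjusted p = 5.36e-11) and by 3.68 ± 0.22 in acf iaf-1 (limma adjusted p = 1.08e-09). In iaf-1 iaf-2 the differences were 0.80 ± 0.30 for NCU16929 (limma adjusted p = 0.0696) and 0.18 ± 0.25 for NCU09952 (limma adjusted p = 0.675). Without WT replicate 1, NCU16929 in iaf-1 iaf-2 was called higher, at 1.08 (limma adjusted p = 0.0181).

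NCU10502 had 34.2, 29.6 and 32.0 TPM in acf iaf-1, and 27.6, 2.27 and 6.20 TPM in acf iaf-2. It had 0.33 and 2.87 TPM in iaf-1 iaf-2. The acf iaf-1 libraries lay together above those of WT and the other double mutants, while 1 acf iaf-2 library was near them and another within the WT range. The near one, replicate 1, is the acf iaf-2 library with the early library number. The rise in acf iaf-1 was 3.66 ± 0.67 (log2, SE; limma adjusted p = 0.00098). The difference in acf iaf-2, 1.75 ± 0.67, did not pass (limma adjusted p = 0.0769). It passed without WT replicate 1, at 2.33 (limma adjusted p = 0.0266), and without acf iaf-2 replicate 2, at 2.46 (limma adjusted p = 0.0113). In iaf-1 iaf-2 the difference from WT was -0.20 ± 0.74 (limma adjusted p = 0.899), which turned to 0.39 without WT replicate 1 (limma adjusted p = 0.794).

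NCU08969 followed another order. It stood at 238, 303 and 230.1 TPM in acf iaf-1, at 162 and 63.5 TPM in iaf-1 iaf-2 and at 39.4, 33.0 and 38.2 TPM in acf iaf-2. None of these libraries overlapped those of another genotype, and all lay above WT. It rose by 6.96 ± 0.24 in acf iaf-1 (log2, SE; limma adjusted p = 1.13e-12), by 5.64 ± 0.27 in iaf-1 iaf-2 (limma adjusted p = 4.01e-10) and by 4.20 ± 0.24 in acf iaf-2 (limma adjusted p = 9.51e-10). Both genotypes labelled iaf-1 were thus above acf iaf-2. The difference of acf iaf-1 from acf iaf-2 was 2.76 ± 0.24 (limma adjusted p = 2.26e-06), and that of acf iaf-2 from iaf-1 iaf-2 was -1.44 ± 0.27 (limma adjusted p = 0.000952). The rise in iaf-1 iaf-2 was 4.97 without its replicate 1 and 6.31 without its replicate 2. The difference of acf iaf-2 from it was then -0.77 and -2.11, and that of acf iaf-1 from it, 1.32 with all libraries, was 1.99 and 0.65. Each of these was called with either library left out.

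Between acf iaf-1 and acf iaf-2, 3 of the 5 genes passed, against 9.96% of all genes called in either direction. NCU08969 was higher in acf iaf-1. NCU16929 and NCU09952 were lower there, by -0.95 ± 0.27 (log2, SE; limma adjusted p = 0.0355) and -0.97 ± 0.22 (limma adjusted p = 0.0116). The call of NCU16929 was lost whenever any 1 library of either genotype was left out (limma adjusted p from 0.0553 to 0.14) and with log2(TPM + 0.1) (limma adjusted p = 0.0948). That of NCU09952 was lost without acf iaf-1 replicate 3 or acf iaf-2 replicate 1 or 3 (limma adjusted p from 0.0601 to 0.0683). It was also lost with only these genotypes in the fit (limma adjusted p = 0.07) and with log2(TPM + 0.1) (limma adjusted p = 0.171). NCU10644 and NCU10502 had differences of 1.11 ± 0.36 (limma adjusted p = 0.0666) and 1.91 ± 0.67 (limma adjusted p = 0.0905). NCU10644 was called with only these genotypes in the fit (limma adjusted p = 0.0262) and by edgeR on recovered reads (edgeR adjusted p = 0.0201). NCU10502 was called without acf iaf-2 replicate 1, at 2.76 (limma adjusted p = 0.00853).

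The double mutants stayed below the triple mutant. The triple mutant mean was 121 times the highest double mutant mean for NCU10502, 23.0 times for NCU16929, 16.8 times for NCU10644, 12.0 times for NCU09952 and 3.71 times for NCU08969. NCU08969 was at 26.9% of its triple mutant mean in acf iaf-1 and at 11.8% in iaf-1 iaf-2. NCU10502 was at 0.83% of its triple mutant mean in acf iaf-1.

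Among the deletions of 1 gene that were not used in the choice, acf gave the most calls at these loci. In series 112, NCU10644, NCU16929, NCU08969 and NCU09952 rose in acf and NCU10502 did not pass, while 15.2% of all genes were called higher. The filter on low counts needed 3 libraries at its cutoff, and all 3 triple mutant libraries reached it for each of the 5 genes. NCU16929 also reached it in all 3 WT libraries and NCU08969 in 2 WT and 3 set-7 libraries. NCU10644 reached it in 3 acf libraries but in 1 each of WT and set-7, NCU09952 in 3 acf libraries and none of WT or set-7, and NCU10502 in 1 WT library. NCU10644, NCU09952 and NCU10502 were thus tested only because of mutants in which they are high, so the count of 4 is given as a description. NCU16929 had 312, 241 and 239 reads in acf and 7, 17 and 10 in WT, a log2 fold change of 3.80 ± 0.30 (SE; edgeR adjusted p = 3.56e-07). NCU10644 had 112, 110 and 94 reads in acf and 0, 10 and 0 in WT, with 4.23 ± 0.52 (edgeR adjusted p = 7.26e-05). All of its WT reads came from WT replicate 2, without which the fitted value was 9.41 (edgeR adjusted p = 5.02e-06), against WT libraries with no read, and is then no bound. Each acf library of both genes lay above every WT library.

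NCU08969 had 124, 151 and 103 reads in acf and 3, 14 and 9 in WT, a log2 fold change of 3.12 ± 0.26 (SE; edgeR adjusted p = 4.88e-07). NCU09952 had 57, 70 and 49 reads in acf against 0, 2 and 0 in WT. The ratio of its summed reads, scaled to library totals, was 50.9 with an exact 95% counting interval of 13.9 to 424, and edgeR gave a log2 fold change of 5.54 with an adjusted p of 5.01e-06. Without WT replicate 2, again the only WT library with reads, the fitted value was 8.57 (edgeR adjusted p = 4.94e-05) and is likewise no bound. For both genes, too, no acf library overlapped WT. Against the triple mutant, the acf means of these 4 genes were 1.21% to 4.07%.

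NCU10502 behaved apart from its neighbour NCU10644 in acf. It had 15, 8 and 8 reads in acf and 1, 25 and 0 in WT, and its libraries overlapped. The log2 fold change was -0.45 ± 0.72 (SE; edgeR adjusted p = 0.688). Without WT replicate 2 it was 3.20 and passed (edgeR adjusted p = 0.00615), so that 1 WT library decides both the sign and the call.

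In series 111, the libraries were shallower and NCU10502 and NCU09952 did not pass the filter on low counts. Each of its groups held 1 pair of nearly identical libraries. The p-values and SDs of series 111 thus rest on fewer than 3 distinct libraries per group. NCU10502 had 1, 0 and 1 reads in acf and none in the other 9 libraries. NCU09952 had 1, 2 and 5 reads in acf and none elsewhere, at least 2.72-fold higher than WT when WT is set to the group floor of 3 reads. NCU10644 and NCU16929 passed the filter through the acf libraries alone, so their calls in acf lend no support. NCU10644 had 13, 16 and 10 reads in acf and 0, 2 and 0 in WT. NCU16929 had 15, 26 and 35 in acf and 1, 2 and 1 in WT. For both genes every acf library lay above all others of the series.

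NCU08969 had 26, 30 and 36 reads in acf, 8, 15 and 22 in iaf-1, 4, 2 and 5 in iaf-2 and 6, 1 and 6 in WT. The acf libraries lay above all others and the iaf-1 libraries above WT and iaf-2. NCU08969 reached the cutoff of the filter in the acf and iaf-1 libraries and in none of WT or iaf-2. It too was thus tested only through mutants in which it is high, so its calls in series 111 are given as a description. The log2 fold change against WT was 3.13 ± 0.41 in acf (SE; edgeR adjusted p = 2.71e-05), where 31.6% of all genes were called higher. In iaf-1 it was 1.89 ± 0.46 (edgeR adjusted p = 0.00914), and it was the only 1 of the 3 genes tested to pass there, beside 15.9% of all genes. The iaf-1 call was lost when the nearly identical library pairs of series 111 were summed (edgeR adjusted p = 0.0657). With these pairs summed, the acf call stayed at a weaker edgeR adjusted p of 0.0011.

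In iaf-2, 0 of the 3 tested genes passed in edgeR or in DESeq2, 1 had an unadjusted edgeR p under 0.05, and 10.1% of all genes were called higher. NCU16929 had 3, 6 and 10 reads there, all above the WT libraries, and a log2 fold change of 1.91 ± 0.77 (SE; edgeR adjusted p = 0.102). NCU10644 had no read in any iaf-2 library, a count that allows up to 3 reads in the group. NCU08969 was higher in acf than in iaf-1, by 1.24 ± 0.33 (log2, SE; edgeR adjusted p = 0.00623), and than in iaf-2, by 3.60 ± 0.42 (edgeR adjusted p = 1.14e-05). NCU10644 and NCU16929 were called in the same direction, but they were tested through the acf libraries alone, so these calls lend no support. In those comparisons 59.2% and 64.2% of all genes were called in either direction.

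**Figure D2:**
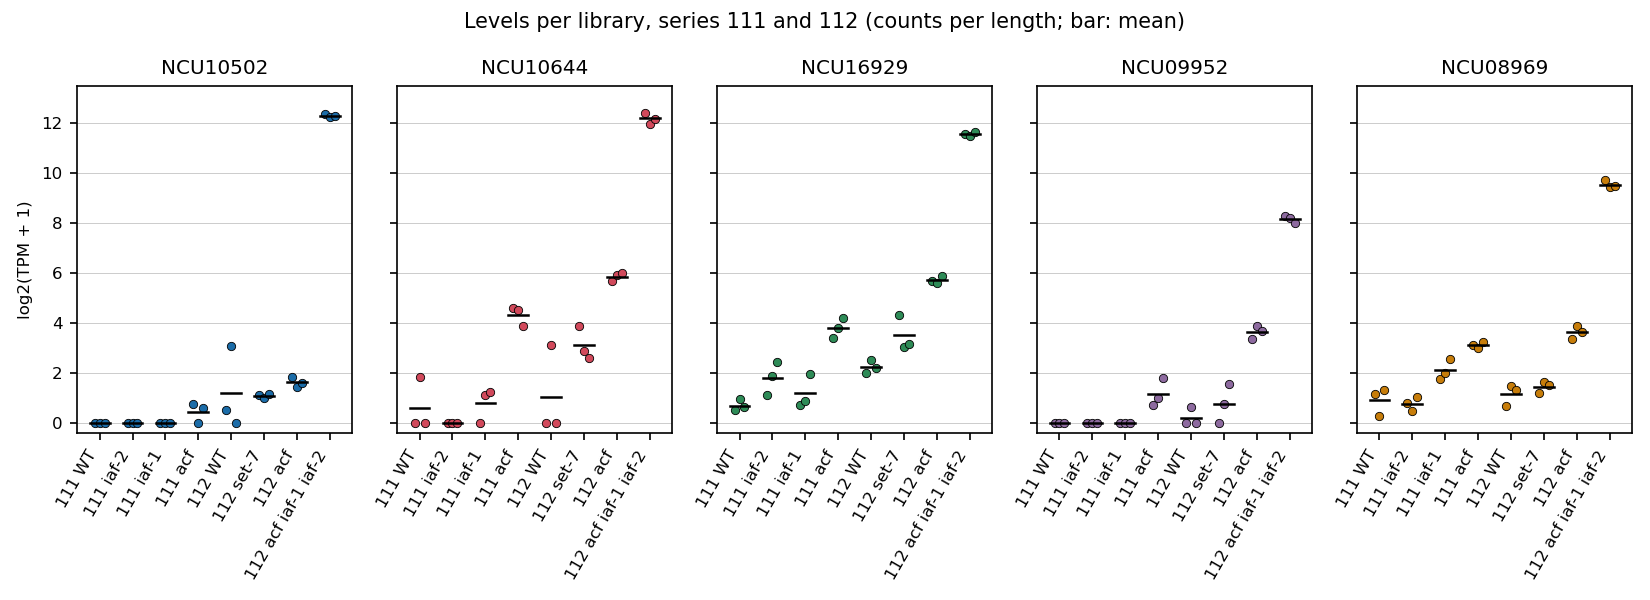
Level of each gene in each library of series 111 and 112 on a log2(TPM + 1) axis, computed from reads per counted length, with points for libraries and a bar for the mean of the plotted values (n = 3). The triple mutant of series 112 stood highest for all 5 genes, and WT replicate 2 of series 112 is the high WT point of NCU10502 and NCU10644.

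In set-7, the PRC2 mutant, 1 of the 5 genes rose, NCU16929, and 7.40% of all genes were called higher. NCU10502, NCU10644 and NCU09952 reached the filter in at most 1 WT and 1 set-7 library. For these genes the lack of a call does not show a lack of change. NCU16929 had 34, 31 and 57 reads in set-7, all above the 7, 17 and 10 of WT. Its log2 fold change was 1.46 ± 0.36 (SE; edgeR adjusted p = 0.0147), and the call was lost with only set-7 and WT in the fit (edgeR adjusted p = 0.0849). NCU10644 had 9, 10 and 13 reads, with 1.23 ± 0.76 (edgeR adjusted p = 0.298). Without WT replicate 2 it was called higher (edgeR adjusted p = 0.017), against WT libraries with no read.

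NCU10502 had 2, 4 and 8 reads in set-7, with a log2 fold change of -1.32 ± 0.85 (SE; edgeR adjusted p = 0.318), which turned to 2.33 without WT replicate 2. NCU08969 had 5, 20 and 28 reads and 0.54 ± 0.35 (edgeR adjusted p = 0.313). NCU09952 had 0, 3 and 14 reads and 2.41 ± 0.93 (edgeR adjusted p = 0.0927). The set-7 libraries of the latter genes overlapped those of WT. Against set-7 itself, acf was higher for 4 of the 5 genes, with 19.0% of all genes called in either direction. The difference of acf from set-7 was 3.00 ± 0.42 for NCU10644 (edgeR adjusted p = 0.000229) and 2.34 ± 0.25 for NCU16929 (edgeR adjusted p = 9.23e-06). It was 2.59 ± 0.23 for NCU08969 (edgeR adjusted p = 1.13e-06) and 3.13 ± 0.37 for NCU09952 (edgeR adjusted p = 2.1e-05), which was 4.39 without set-7 replicate 3. Of these, NCU16929 and NCU08969 reached the filter in set-7 itself. NCU10644 and NCU09952 were tested only through acf and the triple mutant, so their calls and the count of 4 lend no support. NCU10502 did not pass, at 0.87 ± 0.82 (edgeR adjusted p = 0.523).

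**Figure D3:**
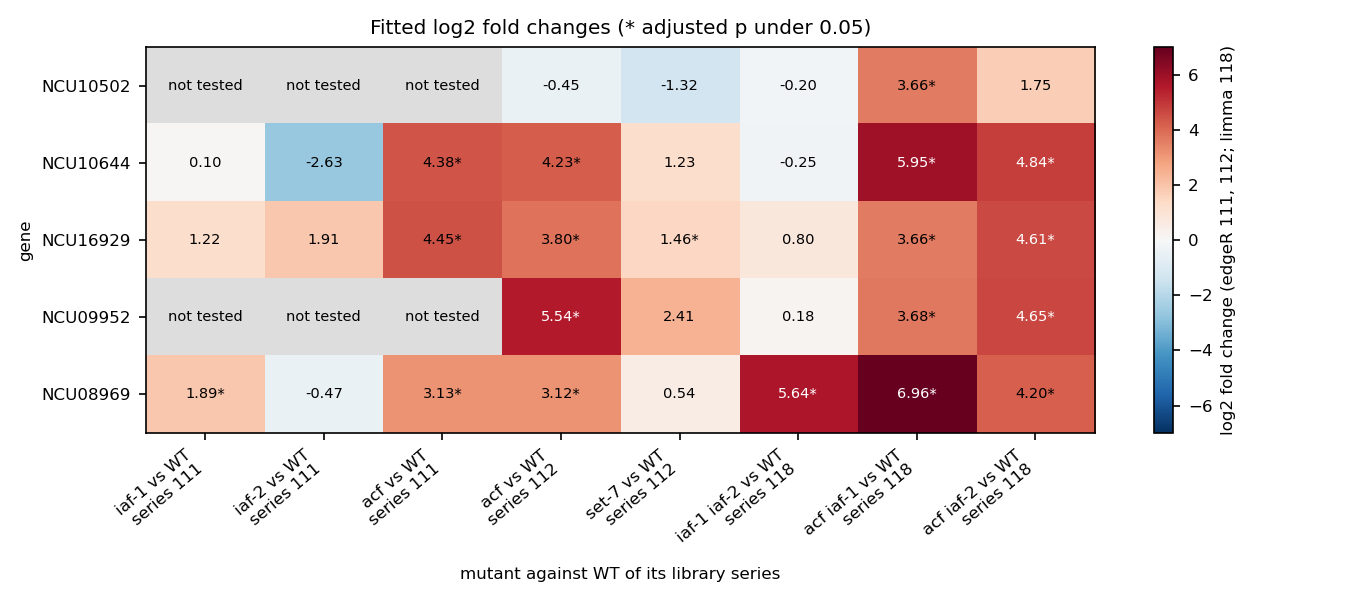
Fitted log2 fold change of each gene in the 8 mutants set against WT of their own series that were not used to choose the genes, with an asterisk where the adjusted p was under 0.05 and grey where the gene failed the filter on low counts. The columns with acf hold 3.12 to 6.96 for the called genes; in iaf-1 iaf-2 the called gene was NCU08969, at 5.64.

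By the gene order of the reference assembly NC12, NCU10644 and NCU10502 are adjacent on chromosome IV. NCU16929, NCU08969 and NCU09952 lie on chromosome V, the last of these 30 genes from NCU08969 and the first 1373 genes away from it. Each lies between 128 and 164 genes from the nearest end of its chromosome, counting every gene of the reference table. Neighbours were taken as the 5 genes on each side whatever their value, which gave 40 genes without the 5 themselves, of which 33 passed the filter on low values. In isw 22 of the 33 were called higher and 1 lower, with a median log2 fold change of 0.98 (0.08 over all genes tested). Of the 33, 17 reached 1 TPM in at least 2 WT libraries, and 8 of these 17, or 47.1%, were called higher, against 22.9% of the 8136 genes tested that did so. The other 16 passed the filter only through mutant libraries, and 14 of them were called higher.

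The neighbourhoods differed among the 5 genes. All 8 tested neighbours of NCU10502 and all 7 of NCU10644 were called higher, and they share most of them. For NCU09952 it was 8 of 9, for NCU16929 4 of 7, and for NCU08969 2 of 9, with 1 lower. Over all genes tested, 29.0% were called higher in isw. All 4 called for NCU16929 had WT means of 0 to 0.23 TPM. So low in WT, at 0 to 0.36 TPM, were also NCU04875, NCU04876, NCU04877, NCU09948, NCU09949, NCU09950, NCU09956, NCU09957 and NCU08970. These genes were tested only through mutants in which they are high, so the counts are a description. NCU08969 thus rose to 562 TPM in isw between genes whose median log2 fold change was 0.07. The difference between neighbourhoods was not tested, and the counts depend on which genes passed the filter.

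The 10 neighbours called and changed at least 4-fold in isw were NCU04877 and NCU04879 beside NCU10502, NCU08916, NCU16927, NCU08912 and NCU16930 beside NCU16929, and NCU09949, NCU09950, NCU09953 and NCU09956 beside NCU09952. NCU04879, the next gene after NCU10502, was not silent in WT, at 30.0 TPM ± 6.57, and reached 5235 TPM ± 233 in isw (SD, n = 3), a log2 difference of 7.42 ± 0.20 (SE; limma adjusted p = 8.35e-15). NCU16930, the next gene after NCU16929, went from 0.23 TPM ± 0.17 to 358 ± 21.1 (SD, n = 3), with 8.20 ± 0.17 (SE; limma adjusted p = 4.02e-16). NCU09953, the next gene after NCU09952, went from 0.86 TPM ± 0.46 to 84.6 ± 10.6 (SD, n = 3), with 5.54 ± 0.21 (SE; limma adjusted p = 4.97e-13). The gene after NCU16930, gel-3, had 1184 TPM in WT and 1099.9 in isw.

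These 3 adjoining genes also differed between the double mutants. NCU04879 was higher in acf iaf-1 than in acf iaf-2, by 1.07 ± 0.20 (log2, SE; limma adjusted p = 0.00261). NCU16930 and NCU09953 were lower there, by -0.58 ± 0.17 (limma adjusted p = 0.0446) and -0.93 ± 0.21 (limma adjusted p = 0.00906). Each difference has the sign of that of the gene beside it, though that of NCU10502 was not called and the NCU16929 call was easily lost. NCU04877, beside NCU10644, had -0.07 ± 0.16 (log2, SE), against 1.11 for NCU10644, and neither was called. In iaf-1 iaf-2, none of NCU04879, NCU16930 and NCU09953 passed against WT (limma adjusted p from 0.104 to 0.837). Of all neighbours tested, 2 of 33, or 6.1%, were called higher in iaf-1 iaf-2, where 14.0% of all genes were. In acf iaf-1 it was 7 of 33, or 21.2%, beside 17.7% of all genes, with 1 lower, and in acf iaf-2 10 of 33, or 30.3%, beside 19.5%. In series 112 it was 5 of 25 in acf, or 20.0%, beside 15.2% of all genes, with 2 lower. In set-7 it was 3 of 25, or 12.0%, beside 7.40%, and NCU04879 was among those called in acf and in set-7. In series 111, 17 neighbours were tested, and 8, or 47.1%, were called higher and 5 lower in acf, beside 31.6% of all genes called higher. In iaf-1 3, or 17.6%, were called higher and 5 lower, beside 15.9% of all genes called higher and 1034 of 7974 called lower. In iaf-2 the calls were 4 lower ones (edgeR), where 10.1% of all genes were called higher and 756 of 7974 lower.

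**Figure D4:**
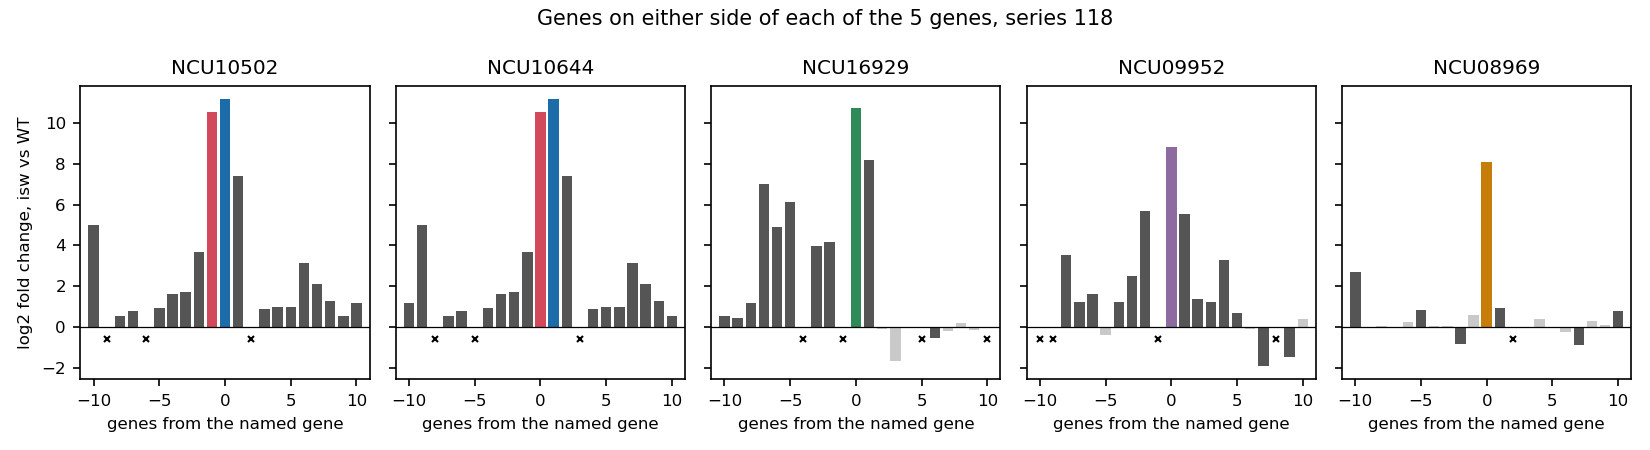
Log2 fold change of isw against WT on the log2(TPM + 1) scale for the 10 genes on each side of each named gene, in reference gene order, with coloured bars for the 5 genes themselves, dark grey bars for other genes with an adjusted p under 0.05, light grey bars for the rest and crosses for genes not tested. Around NCU10502, NCU10644 and NCU09952 most neighbours were called higher, while around NCU08969 2 of the 9 tested within 5 genes were.

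Over the 17 libraries of series 118, Pearson's r of log2(TPM + 1) between pairs of NCU10502, NCU10644, NCU16929 and NCU09952 lay between 0.94 and 0.99. With NCU08969 it lay between 0.78 and 0.82. All pairs share the libraries and the choice by isw and triple mutant levels, so the values are a description. The genes outside the 5 with the most similar pattern to NCU09952 were NCU09589 (r = 0.995), NCU06901, NCU08261 and stk-35. NCU09589 had 0.25 TPM in WT, 374 in isw, 34.9 in acf iaf-2 and 14.9 in acf iaf-1, the order of NCU09952 in these genotypes. It was picked by r over the same libraries, so the like order lends no support. Those most like NCU08969 were NCU00850 (r = 0.988), NCU16341, NCU00773 and NCU07047. NCU00850 stood at 54.1 TPM in acf iaf-1, 16.9 in iaf-1 iaf-2 and 10.2 in acf iaf-2.

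For NCU10502 the most similar genes were NCU02215 (r = 0.985), NCU05470, NCU06475 and NCU05107. For NCU10644 they were NCU05759 (r = 0.991), NCU06888, NCU08261 and NCU04706, and for NCU16929 stk-35 (r = 0.991), NCU05604, NCU08797 and NCU16728. None of these lies among the 10 neighbours of its gene. Of the genes of the ISWI complex, isw was lower in isw, and acf, iaf-1 and iaf-2 were called higher. Of 5 genes of PRC2 and its reader, 4 were called higher and 1, NCU05460 (suz12), lower by -0.65 ± 0.17 (log2, SE; limma adjusted p = 0.00414). The set-7 gene itself was called higher, at 0.76 ± 0.16 (limma adjusted p = 0.000884). These counts stand beside 29.0% of all genes called higher in isw and 1805 of 9339 called lower.

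Marker genes of other cell types moved in the same libraries. Of 3 sexual-tissue genes, per-1 (perithecial pigment) and pre-2 (a pheromone receptor) were called higher in isw and pre-1 was not. Their summed level was 4.72 to 5.25 TPM in WT, 267 to 319 in isw, 363 to 435 in the triple mutant, and 5.81 to 13.1 in the double mutants, so the double mutants held far less of it. Still, 2 of the 3 were called higher in acf iaf-1 and 2 in acf iaf-2, beside 17.7% and 19.5% of all genes. In iaf-1 iaf-2 it was 0 of 3, beside 14.0%. In series 112 it was 2 of 3 in acf, beside 15.2%, and 0 in set-7, beside 7.40%. Of 4 conidial genes, con-6 and eas were called higher in isw, con-8 lower and con-10 neither, with summed levels of 304 to 815 TPM in WT and 320.1 to 486 in isw. The conidial genes also moved in other genotypes, with and without acf in their label. Their sum was 877 to 908.5 TPM in acf of series 111 against 62.9 to 179 in WT, with eas at 818 TPM on average against 42.3. Of the 3 tested there, 2 were called higher and 1 lower, beside 31.6% of all genes called higher. In acf iaf-2 the sum was 475 to 1802 TPM against 304 to 815 in WT, with eas at 291 against 25.8. There 2 of the 4 were called higher, beside 19.5% of all genes. In acf iaf-1 the sum was 605.4 to 804 TPM, with eas at 26.4 and 0 of the 4 called. In iaf-1 iaf-2 it was 638 to 1520 TPM, with 1 called lower. In acf of series 112 it was 774 to 1129 TPM against 776 to 1508 in WT. There 1 was called higher and 1 lower, beside 15.2% of all genes called higher. Their part in the rises of the 5 genes was not tested. Of 4 abundant growth genes of the mycelium, 1, tef-1, was called higher in isw. The isw counts of these marker lists stand beside 29.0% of all genes called higher and 1805 of 9339 called lower.

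Genes of the mating type A locus had no read in isw, acf iaf-2 and iaf-1 iaf-2, and a summed level of 0.79 to 0.99 TPM in WT of series 118. In acf iaf-1 they summed to 42.4 to 60.7 TPM. In series 111 their sum was 17.4 to 28.2 TPM in WT, 0 in acf and iaf-1 and 0 to 0.15 in iaf-2. In series 112 it was 1.19 to 4.27 TPM in WT, 0 in set-7 and the triple mutant and 0 to 0.16 in acf. Most mutants thus differed from their WT at this locus too. The part of cell type or mating type in the differences described was not tested.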

How the data were processed

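Extraction used Trizol with lithium chloride, and libraries were stranded mRNA libraries, per the labels' protocols. Tools named in the submitters' processing notes are HISAT2 2.1.0, featureCounts, Subread 1.6.2, SAMtools 1.9, cutadapt 1.14, Trim Galore 0.4.4 and FastQC. A genome build or a strand setting for the counts is not given in the sources used. For series 111 and 112 the authors deposited whole read counts, and for series 118 TPM. The 53 ChIP-seq and MNase-seq samples were not analysed here. Of 10397 rows, 10363 were found by locus tag in the RefSeq table of assembly NC12, used for symbols and gene order. The TPM of every gene were whole multiples of a step within 0.01 read, which gave gene lengths and whole reads for 10397 genes.

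Counts were tested with edgeR 4.0.16 (quasi-likelihood, TMM, filterByExpr) and TPM with limma 3.58.1 on log2(TPM + 1) (trend, robust) over genes that reached 1 TPM in 2 or more libraries. R was 4.3.3. All groups of a series entered its fit, without a replicate block, and Benjamini-Hochberg adjustment ran over all genes tested with a threshold of 0.05. Alternatives were DESeq2 1.42.0, no filter, only the compared groups, a replicate block, log2(TPM + 0.1), edgeR on the recovered reads, library pairs summed and each replicate left out. In series 111, 4 pairs of libraries, 1 in each group, were nearly identical (chi-square per degree of freedom 1.53 to 1.93, against 6.93 to 126.7 in the other 36 pairs). The code was tested on simulated data. The 5 genes and the gene lists were chosen with earlier results of these data known. The named genes were the 5, their called neighbours of at least 4-fold change, the 4 genes most like each among those with a group mean of at least 5 TPM, and the listed genes. Other genes were named after their values were seen. Counting intervals and floors leave out other error, as reads amplified by PCR and lacking molecular identifiers are not independent.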

Additional observations from a re-analysis of the deposited data

How the results depend on the processing

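Of the calls on the 5 genes, those in acf of series 112 (4 genes), acf iaf-1 (5 genes) and acf iaf-2 (4 genes) stayed within 1.5 times their count under every alternative run. The count for iaf-1 fell to 0 with the library pairs of series 111 summed. That for set-7 fell to 0 with only the compared groups and lay between 1 and 2 when 1 library was left out, with 2 without WT replicate 2. That for iaf-1 iaf-2 lay between 1 and 2, with 2 without WT replicate 1 or iaf-1 iaf-2 replicate 1. That for acf iaf-1 against acf iaf-2 was 1 with log2(TPM + 0.1) and lay between 1 and 2 with 1 library left out. Of neighbours, 14 were called higher in isw with 3 genes on each side and 41 with 10, of 20 and 68 tested. By r over group means in place of libraries, the named similar genes ranked between 1 and 31.

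Replicate numbers did not pair the libraries: same-numbered libraries had deviations from their group means that correlated from -0.44 to 0.12 in series 111. The range was -0.26 to 0.36 in series 112, and in series 118 it was -0.25 to 0.43. With a replicate block the count for iaf-2 was 1 (NCU16929, edgeR adjusted p = 0.0485) and NCU10644 passed between acf iaf-1 and acf iaf-2 (limma adjusted p = 0.0469).

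Log2 fold changes with few reads turned sign when 1 library was left out. NCU10644 ranged from -0.51 to 2.75 in iaf-1 and from -0.51 to 0.26 in iaf-1 iaf-2. NCU10502 ranged from -0.97 to 0.57 in iaf-1 iaf-2, from -1.83 to 2.33 in set-7 and from -0.96 to 3.20 in acf of series 112. NCU09952 ranged from -0.0036 to 0.36 in iaf-1 iaf-2. NCU10502 and NCU09952 had too few reads to be tested in series 111. The cause of these changes was not tested.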

Other observations

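The libraries labelled acf were made in both series 111 and 112. An edgeR fit over both, with a genotype by series interaction chosen after the values had been seen, called a difference for none of the 4 genes tested at an adjusted p under 0.05. The log2 difference (series 112 minus series 111) was -0.26 ± 1.03 (SE) for NCU10644 (edgeR adjusted p = 0.857) and -0.75 ± 0.58 for NCU16929 (edgeR adjusted p = 0.319). It was -0.09 ± 0.54 for NCU08969 (edgeR adjusted p = 0.907) and 0.38 ± 0.66 for NCU09952 (edgeR adjusted p = 0.662). With these errors, a difference in either direction is not shown to be absent.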
